A study of Mus musculus with 2 samples.

Results

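Transcripts of 10 genes of fibroblast growth factor (FGF) signalling were counted, and signalling itself was not measured. The genes are the ligand *Fgf10*, the receptors *Fgfr1*, *Fgfr2* and *Fgfr3*, the feedback inhibitors *Spry1*, *Spry2*, *Spry4* and *Dusp6*, and the transcription factors *Etv4* and *Etv5*. They were chosen by symbol, as 10 of the 31055 features counted. The cells came from mice carrying 1 *Sox9iresGFP* allele, in which cells that use *Sox9* make GFP, and the GFP-positive fraction of the pituitary was sorted at postnatal day 3. Sorting on GFP therefore selects stem cells (SCs), which use *Sox9*, and can also take in daughter cells that have stopped using it but still hold GFP. One droplet library was made from 3 pooled male pituitaries (XY) and 1 from 3 pooled female pituitaries (XX), both untreated and of the same genotype. With 1 library per sex there is no replicate, no test was made, and sex cannot be told apart from animals, sort or library.

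FGFs are secreted ligands that bind receptor tyrosine kinases (FGFR1 to FGFR4) on the receiving cell and activate the RAS and ERK pathway. The pathway switches on its own brakes, the Sprouty proteins and the ERK phosphatase DUSP6, together with the ETS factors ETV4 and ETV5, so that these transcripts are widely used as a readout of FGF and ERK activity. In the embryo, FGF8, FGF10 and FGF18 from the infundibulum, the neural tissue that becomes the posterior lobe with its glial pituicytes, act on the epithelium that forms the anterior pituitary, where FGFR2 receives FGF10.

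Cells were placed in classes from the UMIs (unique molecular identifiers, 1 per captured transcript) of marker genes, none of which is an FGF gene. A stem-like cell had at least 3 of 5 markers (*Sox2* and *Sox9*, both needed, *Cpxm2*, *Rbpms*, *Cdh26*) and no *Lef1*. A differentiating-like cell had at least 3 of *Lef1* (needed), *Gadd45g*, *Cdkn1a*, *Dll1* and *Shh*. The endocrine classes were gonadotroph-like (3 of 6 markers), POU1F1-lineage-like (2 of 5, with *Pou1f1*) and melanotroph-like (3 of 4), and the others were pituicyte-like (3 of 5) and mesenchymal-like (4 of 7). Cells that met more than 1 definition, 391 male and 88 female, were set aside, and 5272 male and 2386 female cells met none. There were 1976 male and 1939 female stem-like cells, 1029 and 701 differentiating-like, 402 and 34 gonadotroph-like, 392 and 134 POU1F1-lineage-like, 188 and 115 melanotroph-like, and 751 and 314 mesenchymal-like cells. Stem-like cells made up 19.0% of the cells kept in the male library (exact binomial 95% interval 18.2 to 19.7), while their share in the female library was 33.95% (32.7 to 35.2), although the labels call all of the sorted cells stem cells. There were 9 pituicyte-like cells among the male cells, and 0 among the 5711 female cells, which allows a share of up to 0.0646% at the 95% limit. Median depth ran from 6972 UMIs per cell in male mesenchymal-like to 20699 in male melanotroph-like cells. Of the libraries' barcodes, 19 occurred in both. In the male library 25.4% of cells had fewer than 2000 UMIs, against 1.68% in the female library, and most of those were in no class (45.1% of the unclassed male cells).

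Promoter windows of 5 of the genes are shown, so that the word GGAA, the core bound by ETS factors, can be seen on either strand. The genes are the ligand and 4 that were lower by 2-fold or more in both gonadotroph-like and POU1F1-lineage-like cells than in stem-like cells. Windows from RefSeq (GRCm38.p6) were used for 7 of the 10 genes, 9 windows in all, and the other members were not scanned. *Fgfr1*, among those not scanned, was lower in the same way as the 4. The windows are 250 bases long and end just before the start of a RefSeq transcript, which for *Fgf10* and *Fgfr2* lies inside the longer GENCODE gene whose ends are given with the values. They are written in the direction of the gene, with GGAA or its reverse complement TTCC in capitals. The windows are *Fgf10* at chr13:118714449-118714698 (+ strand), *Fgfr2* at chr7:130266809-130267058 (- strand), *Spry1* at chr3:37639697-37639946 (+ strand), *Spry2* at chr14:105896820-105897069 (- strand) and *Dusp6* at chr10:99262981-99263230 (+ strand).
Fgf10: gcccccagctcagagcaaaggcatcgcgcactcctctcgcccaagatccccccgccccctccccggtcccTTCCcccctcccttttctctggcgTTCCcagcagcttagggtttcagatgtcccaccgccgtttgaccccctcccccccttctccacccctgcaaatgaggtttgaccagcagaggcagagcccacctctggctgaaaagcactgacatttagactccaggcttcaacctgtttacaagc
Fgfr2: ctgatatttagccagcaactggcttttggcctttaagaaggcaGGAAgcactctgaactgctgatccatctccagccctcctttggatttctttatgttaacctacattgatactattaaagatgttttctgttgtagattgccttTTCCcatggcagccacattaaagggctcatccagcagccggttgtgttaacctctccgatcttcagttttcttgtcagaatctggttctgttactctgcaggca
Spry1: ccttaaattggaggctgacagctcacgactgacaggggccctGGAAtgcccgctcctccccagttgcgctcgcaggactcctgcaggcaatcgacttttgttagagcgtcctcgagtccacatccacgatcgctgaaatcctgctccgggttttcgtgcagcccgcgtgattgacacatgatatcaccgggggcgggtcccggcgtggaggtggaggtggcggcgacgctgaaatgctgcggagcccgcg
Spry2: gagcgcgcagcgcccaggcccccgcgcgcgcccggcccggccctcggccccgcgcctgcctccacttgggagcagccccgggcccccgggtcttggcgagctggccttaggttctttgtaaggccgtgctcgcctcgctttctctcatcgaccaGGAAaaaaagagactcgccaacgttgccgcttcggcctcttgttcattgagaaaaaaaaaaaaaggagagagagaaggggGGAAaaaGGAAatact
Dusp6: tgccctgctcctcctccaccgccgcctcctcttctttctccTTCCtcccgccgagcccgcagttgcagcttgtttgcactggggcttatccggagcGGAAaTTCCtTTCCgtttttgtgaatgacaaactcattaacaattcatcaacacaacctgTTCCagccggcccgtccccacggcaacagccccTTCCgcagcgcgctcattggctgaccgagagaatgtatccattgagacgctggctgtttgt

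The *Dusp6* window held GGAA 6 times and those of *Spry2*, *Fgf10*, *Fgfr2* and *Spry1* held it 3, 2, 2 and 1 times, beside a median of 3 over all 32851 windows. The longer ETS-type word AGGAAG occurred in the *Fgfr2* and *Dusp6* windows and in 29.5% of all windows, and CGGAAG in that of *Dusp6* and in 13.6% of all. Each longer word includes a GGAA. CCGGAAGT was in none of the 9 windows used for the members and in 2.88% of all. These are matches of letters, and no binding was measured.

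*Fgf10*, the only ligand among the 10 genes (chromosome 13, 118669791 to 118792115 in mm10), had its highest level in a small class of male cells. Levels are given as CPM, the UMIs of a gene summed over the cells of a class per 1000000 UMIs of those cells, with exact Poisson 95% intervals that cover counting error only. In the 9 male pituicyte-like cells *Fgf10* stood at 435 CPM (323 to 574), from 50 UMIs. It was at 16.9 CPM (13.7 to 20.6) in male and 13.6 (9.59 to 18.8) in female mesenchymal-like cells, and at 2.53 (1.98 to 3.17) and 3.03 (2.35 to 3.85) in stem-like cells. Mesenchymal-like cells were therefore above stem-like cells 6.69-fold (limits 4.31 to 10.4) in the male and 4.50-fold (2.49 to 7.997) in female cells, and the intervals of these classes did not overlap. Differentiating-like cells held 0.513 CPM from 8 UMIs and 0.728 CPM from 7 UMIs. In the endocrine classes 0 to 5 UMIs were counted per class and library, and no *Fgf10* UMI was found in female gonadotroph-like or melanotroph-like cells. The 5 UMIs were in female POU1F1-lineage-like cells, at 2.61 CPM (0.847 to 6.09), which overlapped the interval of female stem-like cells. Male POU1F1-lineage-like cells held 0.556 CPM (0.115 to 1.62).

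Every 1 of the 9 pituicyte-like cells had *Fgf10*, with 1 to 15 UMIs and a median of 3. These cells made up 0.0865% of the male cells and carried 16.1% (12.2 to 20.6) of the 311 male *Fgf10* UMIs. Mesenchymal-like cells carried 30.9%, stem-like cells 23.8% and unclassed cells 13.8% of them. There were 3 pituicyte-like cells with 10 or more *Fgf10* UMIs, all among the deeper ones (14682 to 18618 UMIs in all), while the highest count in any cell of another class was 3. A further 4 male cells reached 3 pituicyte markers but also met another definition, and they held 1 to 4 *Fgf10* UMIs each. In the female library, stem-like cells carried 39.9%, unclassed cells 28.0% and mesenchymal-like cells 22.0% of 168 *Fgf10* UMIs, with at most 3 in a cell.

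The pituicyte-like cells also differed in the rest of the pathway. They are named from the neural and glial genes *Nkx2-1*, *Rax*, *Lhx2*, *Col25a1* and *Scn7a*, all present, while *Pitx1*, which marks anterior and intermediate lobe cells, had 0 UMIs in them. *Fgf8*, an infundibular ligand, was found in 8 of the 9 cells at 174 CPM (106 to 269), whereas stem-like cells of the same library held 0.307 CPM from 9 UMIs. *Fgf18*, a further ligand of the infundibulum, was at 43.5 CPM from 5 UMIs, against 5.26 CPM in stem-like cells. The receptor *Fgfr1* was in all 9 cells at 365 CPM (263 to 494), 4.52 times the stem-like level (3.13 to 6.36), and *Spry1* was at 209 CPM (134 to 311), 1.80 times that level (1.12 to 2.78). By contrast, *Spry2* gave 1 UMI, 8.70 CPM (0.220 to 48.5), against 107 CPM in stem-like cells. The other genes were too sparse in these cells to be placed above or below stem-like cells. *Spry4*, *Etv4* and *Etv5* gave 1 UMI each, 1.32 (0.0290 to 8.52), 1.46 (0.0320 to 9.52) and 0.761 (0.0173 to 4.73) times the stem-like level. *Fgfr2* and *Dusp6* gave 2 UMIs each, 0.369 (0.0424 to 1.41) and 0.313 (0.0361 to 1.19) times that level. *Fgfr3* gave none, which allows up to 32.1 CPM at the 95% limit.

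Only 2 of the 10 genes, *Spry1* and *Spry2*, passed the filter for a call at 2-fold, which asks for 10 expected UMIs. The expected UMIs came from the rate of both classes together, which stem-like cells set almost alone. Genes low in stem-like cells, such as *Fgf10* with 50 UMIs in pituicyte-like cells, did not pass, so the filter favoured calls of lower. *Spry2* was lower, as were 18.4% of the 1781 genes that passed the same filter, and 3.65% were higher. That call was lost when the 4 cells that also met another definition were added: the 13 cells then held 72.0 CPM of *Spry2*, and 2 of the 4 had 44634 and 46070 UMIs, more than any of the 9. The immediate early genes, which respond to ERK and to tissue dissociation alike, moved in the same direction as *Spry2*: the summed level of 9 of them was 278 CPM in pituicyte-like cells and 3759.85 to 12626 CPM in the other male classes, with *Fos* at 8.70 CPM from 1 UMI. In the 13 cells, *Fos* was at 1898 CPM (1726 to 2082). Their part in the low *Spry2* level was not tested. With no pituicyte-like cell in the female library, none of these values has a second sample.

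**Figure D1:**
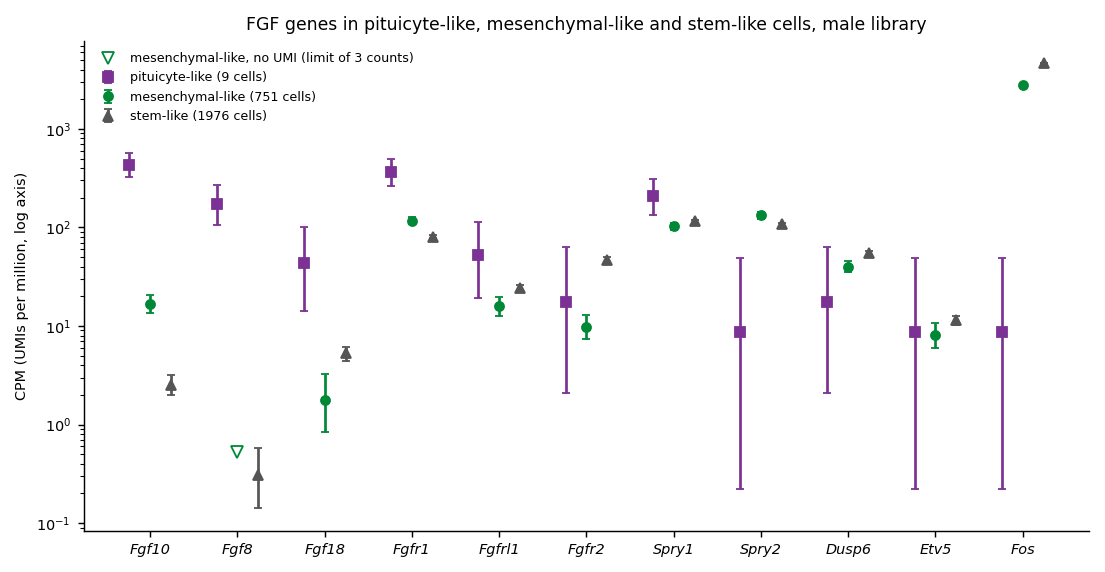
Levels of FGF genes and of the immediate early gene *Fos* in male pituicyte-like (squares), mesenchymal-like (circles) and stem-like (triangles) cells, as CPM on a log axis with Poisson 95% intervals. *Fgf10* stood at 435 CPM in the 9 pituicyte-like cells, 16.9 in mesenchymal-like and 2.53 in stem-like cells, while *Spry2* and *Fos* were lowest in pituicyte-like cells. The open triangle is a class with no UMI, drawn at 3 counts.

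Over the 6 classes found in both libraries, the receptor *Fgfr1* (chromosome 8, 25513654 to 25575718, + strand) was highest in mesenchymal-like cells. It stood there at 117 CPM (109 to 127) in the male and 158 (143 to 174) in the female library. The male pituicyte-like cells, at 365 CPM, were above both. Stem-like cells followed at 80.9 (77.7 to 84.2) and 103 (99.2 to 108), and the intervals of these classes stood apart in both libraries. Differentiating-like cells had 26.7 and 25.5 CPM, POU1F1-lineage-like cells 21.1 and 30.8, and gonadotroph-like cells 12.7 and 34.8. The female gonadotroph-like value rests on 18 UMIs in 8 of 34 cells, and the 20 of these cells that had a UMI of *Lhb*, *Fshb* or *Gnrhr* held 1 of them, 3.55 CPM (0.0899 to 19.8), while the male cells so chosen held 11.7 CPM. In the female library the intervals of these 3 classes overlapped. Melanotroph-like cells were lowest, at 3.12 (1.66 to 5.34) and 3.65 (1.47 to 7.51) CPM. The stem-like level was 25.9 times (14.5 to 50.7) that of melanotroph-like cells in the male and 28.4 times (13.2 to 73.5) in the female library.

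*Fgfr2* (chromosome 7, 130162451 to 133123350, - strand), the receptor that receives FGF10 in epithelia, had a different order. Stem-like cells were highest at 47.2 CPM (44.7 to 49.7) in the male and 39.2 (36.7 to 41.9) in the female library. Mesenchymal-like cells, which were above stem-like cells in *Fgfr1*, held 9.85 and 10.7 CPM of *Fgfr2*, and stem-like cells were 4.79 times (3.49 to 6.68) and 3.68 times (2.39 to 5.87) as high. Differentiating-like cells had 13.4 and 9.57 CPM, melanotroph-like cells 12.01 and 9.38, POU1F1-lineage-like cells 8.71 and 8.35, and gonadotroph-like cells 2.69 and 3.86. Below stem-like cells the neighbouring classes overlapped in their intervals, except that male gonadotroph-like cells were apart from and below all others.

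*Fgfr3* (chromosome 5, 33721674 to 33737068, + strand) was near the limit of detection. It gave 53 male and 48 female UMIs in stem-like cells, 1.81 CPM (1.36 to 2.37) and 2.17 CPM (1.60 to 2.88), and at most 5 UMIs in any other class of either library. The intervals of stem-like and mesenchymal-like cells overlapped in both libraries, while those of male differentiating-like and of all 3 male endocrine classes lay below that of stem-like cells. In the female library this held for differentiating-like cells, with no UMI, and not for the endocrine classes, of which gonadotroph-like cells had 1 UMI and the others none.

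The receptors were also counted per cell, after drawing each cell down to 5000 UMIs and leaving out shallower cells (160 male and 40 female stem-like, 24 and 1 differentiating-like, 22 and 0 melanotroph-like). *Fgfr1* was then found in 31.5% of male and 36.7% of female stem-like, 10.4% and 9.43% of differentiating-like and 2.41% and 2.61% of melanotroph-like cells. Before thinning these shares were 55.7% and 59.8%, 24.2% and 23.97%, and 5.32% and 4.35%, at median depths of 11134 and 9726, 14021 and 12598, and 20699 and 15069 UMIs. *Fgfr2* was in 20.3% and 16.7% of thinned stem-like and 5.67% and 4.71% of differentiating-like cells. Both receptors were seen together in 6.50% of male and 6.48% of female stem-like cells. Stem-like cells with a UMI of both, of 1 or of neither receptor did not separate in the response genes at this depth. At least 2 of the 6 were found in 36.4% (27.8 to 45.8) and 30.1% (22.1 to 39.0) of cells with both. In cells with neither, the shares were 30.4% (27.6 to 33.4) and 28.6% (25.8 to 31.5). Thinning hides a receptor in many cells that hold it, so these groups are mixed and cannot tell whether receptor and response go together.

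**Figure D2:**
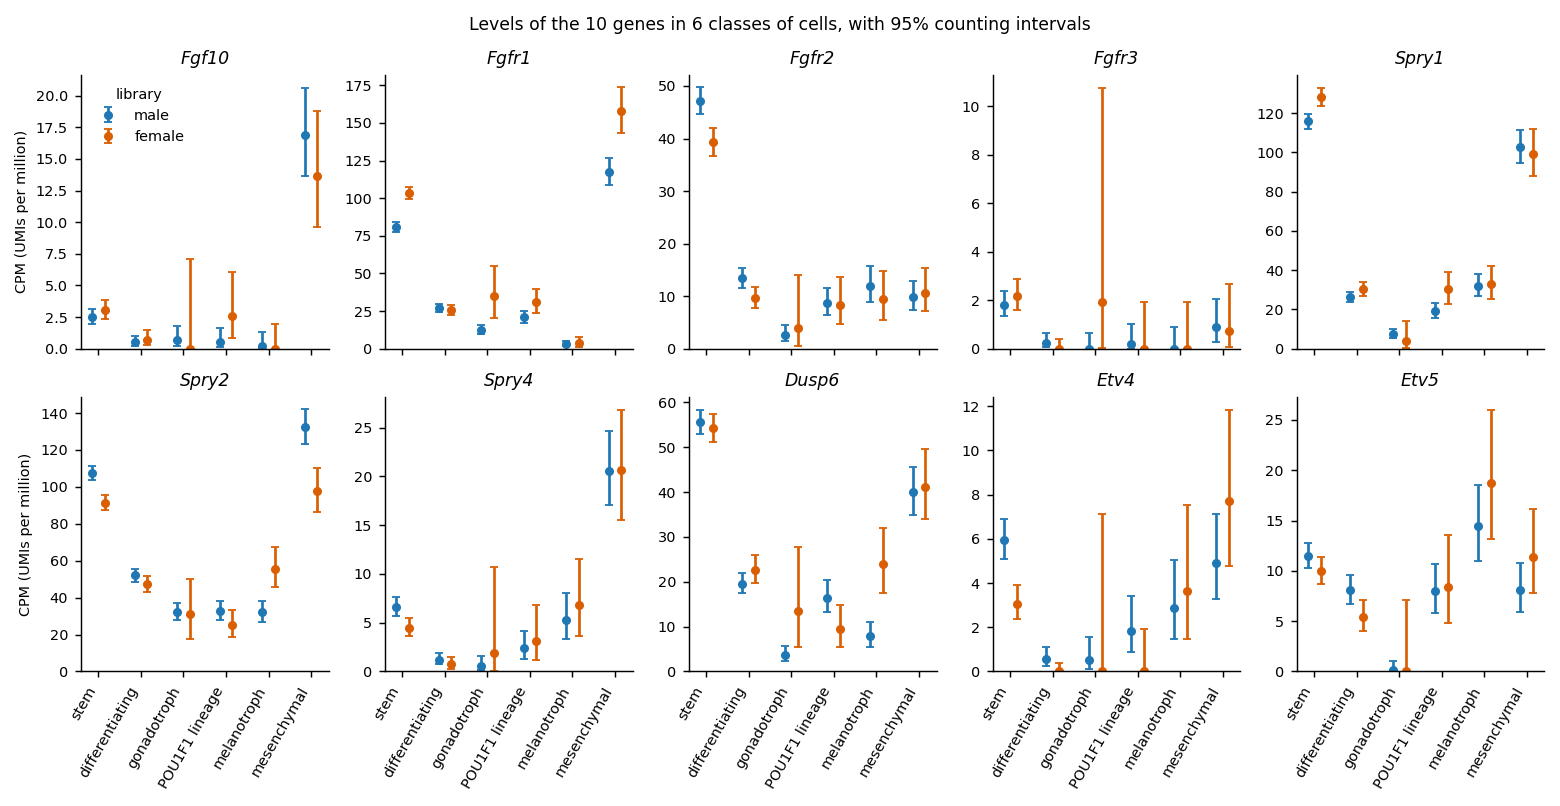
CPM of each of the 10 genes in 6 classes of the male (blue) and female (orange) library, with Poisson 95% intervals and a separate linear axis for each gene. *Fgfr2*, *Spry1* and *Dusp6* were highest in stem-like cells, *Fgf10*, *Fgfr1* and *Spry4* in mesenchymal-like cells, and *Etv5* in melanotroph-like cells in both libraries.

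Of the Sprouty genes, whose products inhibit receptor tyrosine kinase signalling, *Spry1* (chromosome 3, 37639947 to 37644598, + strand) was at 116 CPM (112 to 120) in male and 128 (124 to 133) in female stem-like cells. Mesenchymal-like cells were just below, at 103 (94.8 to 112) and 99.4 (87.9 to 112). The levels in differentiating-like cells were 26.3 and 30.3 CPM, in melanotroph-like cells 32.2 and 32.8, and in POU1F1-lineage-like cells 19.5 and 30.3. Gonadotroph-like cells had the least *Spry1*, 7.35 CPM (5.27 to 9.97) in the male and 3.86 CPM (0.468 to 14.0), from 2 UMIs, in the female library. Thinned to 5000 UMIs, 41.0% and 42.1% of stem-like, 8.36% and 12.1% of differentiating-like and 3.53% and 0 of 33 gonadotroph-like cells had a *Spry1* UMI.

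*Spry2* (chromosome 14, 105891947 to 105896819, - strand) varied least across the classes among the Sprouty genes. It was at 107 and 91.3 CPM in stem-like, 133 and 97.9 in mesenchymal-like, 52.0 and 47.4 in differentiating-like and 32.2 and 30.9 in gonadotroph-like cells. *Spry4* (chromosome 18, 38586247 to 38601415, - strand) had its highest level, 20.6 CPM in both libraries, in mesenchymal-like cells, against 6.59 (5.69 to 7.59) and 4.48 (3.64 to 5.45) in stem-like cells. Mesenchymal-like cells were thus 3.12 times (2.24 to 4.33) and 4.61 times (2.86 to 7.36) as high in *Spry4*. In melanotroph-like cells *Spry4* was at 5.28 and 6.77 CPM, with intervals that overlapped those of stem-like cells, and in differentiating-like cells it was at 1.22 and 0.728 CPM.

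*Dusp6* (chromosome 10, 99263231 to 99267489, + strand), the cytoplasmic phosphatase that inactivates ERK, was highest in stem-like cells at 55.6 CPM (52.9 to 58.3) and 54.2 (51.2 to 57.4). Mesenchymal-like cells had 39.9 and 41.2, and differentiating-like cells 19.6 and 22.7. The libraries parted in melanotroph-like cells, with 7.93 CPM (5.46 to 11.1) in the male and 23.96 (17.5 to 32.0) in the female, and the female level was 3.02 times (1.58 to 5.86) the male. *Pomc* and 6 other hormone genes took 267319 CPM of the male and 135251 CPM of the female melanotroph-like UMIs. With totals that leave out hormone and mitochondrial genes, *Dusp6* was at 11.2 and 28.8 CPM.

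The ETS factors did not share one pattern. *Etv5* (chromosome 16, 22381309 to 22439719, - strand) had its highest level in melanotroph-like cells, 14.4 CPM (11.0 to 18.6) and 18.8 (13.1 to 26.0), where *Fgfr1* was lowest. Stem-like cells had 11.4 (10.2 to 12.7) and 9.95 (8.68 to 11.4) CPM of *Etv5*, and the interval of melanotroph-like cells overlapped with theirs in the male library only. *Etv5* was all but missing from gonadotroph-like cells, with 1 UMI in 402 male and 0 in 34 female cells. *Etv4* (chromosome 11, 101769742 to 101785371, - strand) was at 5.94 CPM (5.09 to 6.89) in male and 3.07 (2.39 to 3.90) in female stem-like cells, 4.93 and 7.73 in mesenchymal-like and 0.577 and 0 in differentiating-like cells. Over the 6 classes found in both libraries, *Etv4* was the 1 gene of the 10 whose highest class was not the same.

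Every 1 of the 10 genes was lower in differentiating-like than in stem-like cells of both libraries. All had enough UMIs (10 expected in the smaller class of each library), and 8 of them were lower by 2-fold or more in both libraries, none higher. The same held for 15.2% of the 13187 genes tested, and 5.26% were higher. For all 8 genes the ratio's limits lay below 1 in both libraries. The male and female libraries gave median log2 ratios of -1.98 and -2.05 for the 10 genes, beside -0.03 and -0.05 over all genes tested. The stem-like level of *Fgfr1* was 3.02 times (2.64 to 3.47) and 4.06 times (3.44 to 4.81) that of differentiating-like cells. The factor was 3.52 (2.91 to 4.27) and 4.10 (3.13 to 5.44) for *Fgfr2*, 4.402 (3.86 to 5.03) and 4.24 (3.64 to 4.95) for *Spry1*, and 2.84 (2.42 to 3.35) and 2.39 (1.98 to 2.90) for *Dusp6*.

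The sparser members had wider limits. *Spry4* was 5.41-fold (2.99 to 10.3) and 6.15-fold (2.43 to 18.6) higher in stem-like cells, and *Fgf10* 4.92-fold (1.96 to 14.3) and 4.16-fold (1.57 to 13.1). *Etv4* was 10.3-fold (4.65 to 26.1) higher in the male library. In the female one it was 9.86-fold higher when the differentiating-like class, with no UMI in 701 cells, is set at 3 counts. With the interval bounds of both classes the female lower limit was 6.22-fold. *Fgfr3* was 7.05-fold (2.06 to 33.9) higher in the male library. Against the same 3 counts it was 6.96-fold higher in the female one, where the lower limit from the bounds was 4.17-fold. Just outside the threshold stood *Spry2*, at 2.06-fold (1.86 to 2.29) and 1.93-fold (1.68 to 2.21), and *Etv5*, at 1.42-fold (1.06 to 1.89) and 1.84-fold (1.22 to 2.81).

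**Figure D3:**
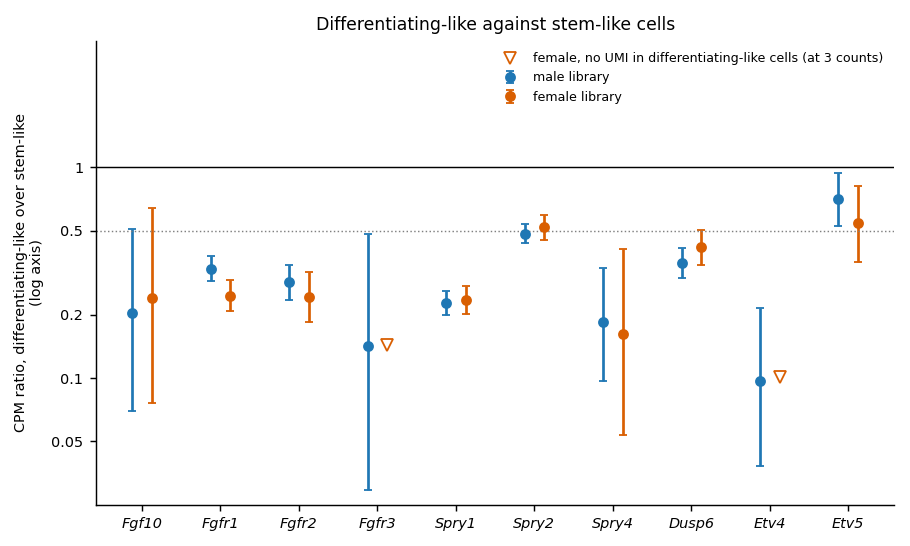
Ratio of the CPM in differentiating-like over stem-like cells for each gene on a log axis, for the male (blue) and female (orange) library, with limits taken from the Poisson bounds. Every gene lay below 1 (solid line), 8 of them below 0.5 (dotted line) in both libraries, and open triangles are genes with no female UMI in differentiating-like cells, set at 3 counts.

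Levels differed within the differentiating-like class by *Sox9*, a marker that stem-like cells needed. Depth was not matched in this split, and means over cells cannot show whether single cells changed by degrees. Differentiating-like cells that still had a *Sox9* UMI (256 male, 154 female) held 45.8 and 52.8 CPM of *Spry1*, and those without (773 and 547) held 17.9 and 22.4. The ratio was 2.55 (1.93 to 3.38) and 2.35 (1.69 to 3.28). For *Fgfr2* it was 3.35 (2.25 to 4.99) and 2.52 (1.38 to 4.59), with 26.3 and 17.3 CPM in the cells with *Sox9*. *Fgfr1* and *Dusp6* differed by less, 1.64 and 1.55 for *Fgfr1* and 1.76 and 1.91 for *Dusp6*. *Etv5* did not separate these cells, at 1.21 (0.708 to 2.05) and 0.862 (0.327 to 2.11).

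Without the class limits, *Sox2*-positive cells outside the endocrine, mesenchymal and pituicyte definitions were grouped by how many of the 5 differentiating markers they had. This view was chosen after the class values were seen, and means of such groups cannot tell graded change from mixed cells. With 0, 1, 2, 3 and 4 markers *Fgfr1* was at 87.0, 73.0, 52.5, 34.6 and 19.4 CPM in the male library. In the female library it was at 102.9, 88.3, 54.6, 31.2 and 24.5. *Spry1* went from 110.4 to 27.9 and from 132.8 to 33.1 CPM, and *Dusp6* from 55.5 to 20.3 and from 56.1 to 22.6. *Spry2* lost less, from 101 to 54.2 and from 91.3 to 46.1 CPM. Median depth rose along the same axis, from 7430 to 15191 UMIs in male and from 8750 to 12859 in female cells, and its part was not tested.

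**Figure D4:**
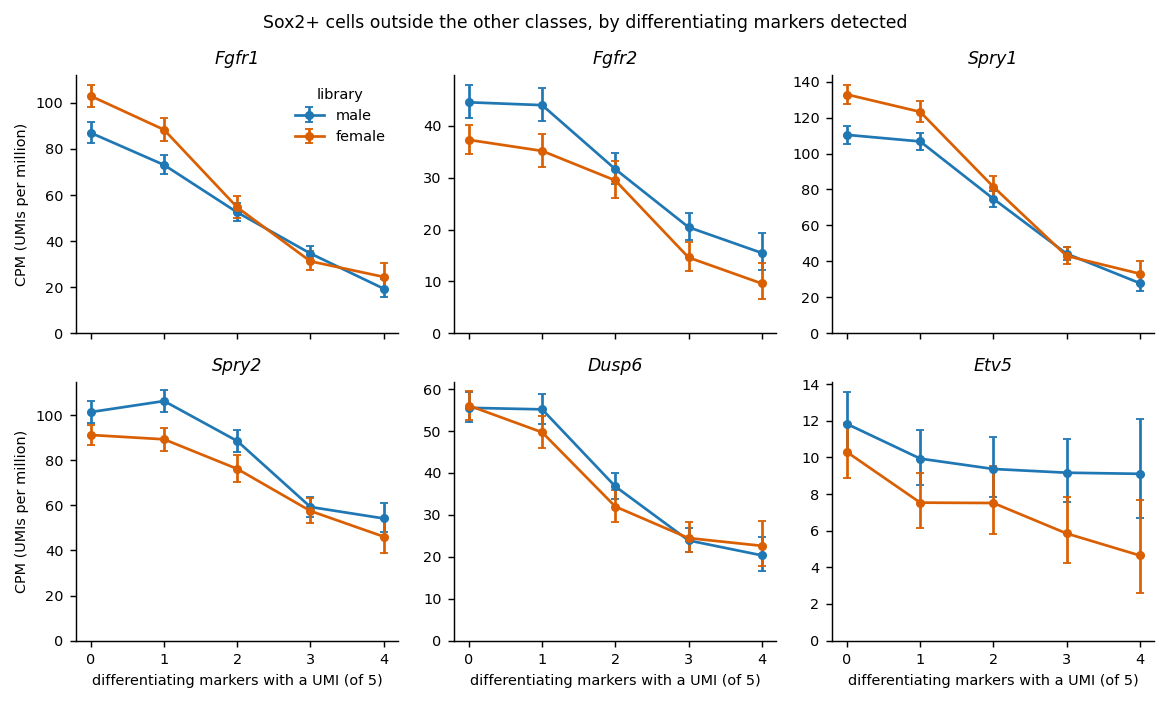
CPM of 6 genes in *Sox2*-positive cells against the number of differentiating markers with a UMI (of 5), in the male (blue) and female (orange) library, with Poisson 95% intervals. *Fgfr1*, *Fgfr2*, *Spry1*, *Spry2* and *Dusp6* were lower with 2, 3 and 4 markers than with 0, while the male *Etv5* intervals overlapped throughout. Female *Etv5* was lower with 3 markers, at 5.85 CPM (4.25 to 7.85), and with 4, at 4.65 (2.60 to 7.66), than with 0, at 10.3 (8.87 to 11.9).

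In the endocrine classes most of the genes were also below the stem-like level. In each endocrine class the expected UMIs came from a rate that stem-like cells largely set, so genes high in stem-like cells passed the filter more easily. For gonadotroph-like cells 5 genes passed, *Fgfr1*, *Fgfr2*, *Spry1*, *Spry2* and *Dusp6*. All 5 were lower than in stem-like cells by 2-fold or more in both libraries. Of 6192 genes that passed, 14.4% were lower and 4.34% higher. *Fgfr2* was 17.5-fold (10.1 to 33.1) lower in male and 10.2-fold (2.63 to 89.7) lower in female gonadotroph-like cells, the latter from 2 UMIs. *Dusp6* was 14.8-fold (9.20 to 25.04) and 4.01-fold (1.84 to 10.6) lower. In POU1F1-lineage-like cells 5 of 6 genes were lower (background 11.1% lower and 5.08% higher), and *Etv5* was not, with 7.97 and 8.35 CPM. In melanotroph-like cells 4 of 6 were lower (background 19.4% lower and 4.73% higher), and neither *Spry2*, at 32.2 and 55.7 CPM, nor *Etv5* was. All genes tested had a median log2 ratio of -0.50 and -0.23 in melanotroph-like against stem-like cells, and the 6 FGF genes tested one of -1.91 and -1.57.

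Mesenchymal-like cells were unlike the endocrine classes. Of 8 genes with enough UMIs, *Fgf10* and *Spry4* were higher and *Fgfr2* lower than in stem-like cells in both libraries, beside 8.61% of 11244 genes higher and 14.2% lower. *Spry1*, *Spry2* and *Dusp6* differed by 1.39-fold or less in both libraries. *Fgfr1* was 1.45-fold (1.29 to 1.63) and 1.53-fold (1.33 to 1.75) higher. Of these cells, 556 male and 287 female had a UMI of *Tcf21*. Between cells with and without it, 0 of 3 genes with enough UMIs (*Fgfr1*, *Spry1*, *Spry2*) passed 2-fold in both libraries, beside 0.676% of 3402 genes higher and 0.353% lower in the cells with *Tcf21*. *Spry1* was 1.73-fold (1.21 to 2.53) higher with *Tcf21* in the male and 1.47-fold (0.796 to 2.90) in the female library. *Fgf10* was at 18.5 and 7.44 CPM in male cells with and without *Tcf21*, from 90 and 6 UMIs, with limits of the ratio from 0.917 to 8.31.

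Seen cell by cell, the response genes grouped the classes in the same way. At 5000 UMIs a stem-like cell held on average 1.09 (male) and 1.06 (female) of the 6 response genes (*Spry1*, *Spry2*, *Spry4*, *Dusp6*, *Etv4*, *Etv5*), and a mesenchymal-like cell 1.18 and 1.09. The mean was 0.405 and 0.434 in differentiating-like, 0.434 and 0.600 in melanotroph-like, 0.326 and 0.341 in POU1F1-lineage-like and 0.198 and 0.212 in gonadotroph-like cells. At least 2 were found in 31.0% (28.9 to 33.2) and 28.9% (26.8 to 31.0) of stem-like cells, but in 5.77% (4.41 to 7.40) and 7.29% (5.47 to 9.47) of differentiating-like cells. Cells in no class lay between them, at 18.2% and 23.0%. These shares rest on 2210 of 5272 unclassed male and 2175 of 2386 unclassed female cells, the others being too shallow to thin. Thinning also kept 506 of 751 male and 285 of 314 female mesenchymal-like cells.

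**Figure D5:**
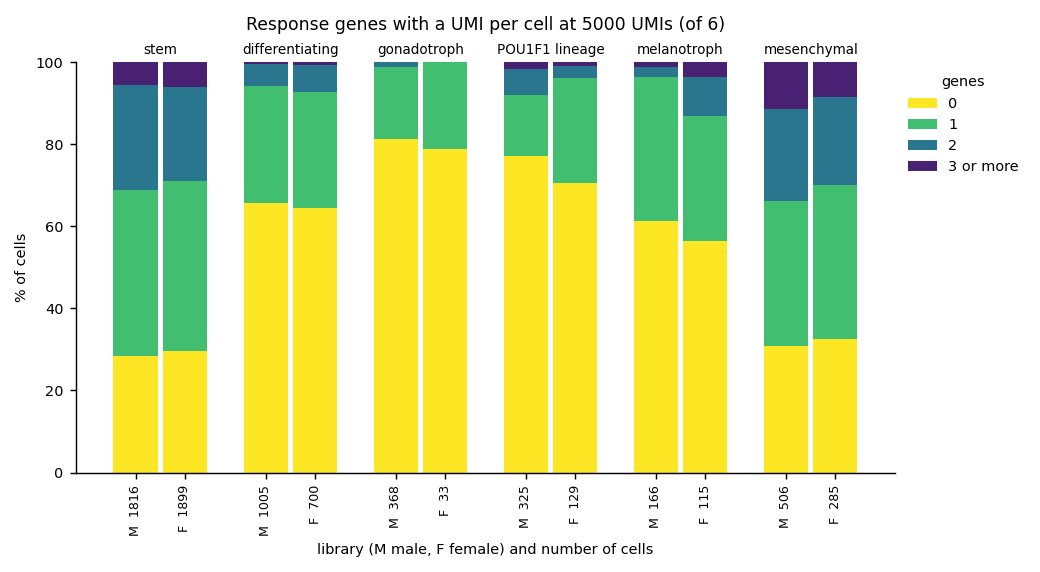
Share of cells with 0, 1, 2 or at least 3 of the 6 response genes detected after thinning to 5000 UMIs, by class and library, with the number of cells under each bar. In 28.3% of male and 29.6% of female stem-like cells none was detected, against 65.8% and 64.6% of differentiating-like and 81.3% and 78.8% of gonadotroph-like cells.

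Stem-like cells were also compared with each other. Cells rich in *Ednrb* (2 or more UMIs), which marks SCs of the cleft, were compared with cells rich in *Aldh1a2* (3 or more UMIs and no *Ednrb*), which marks SCs of the anterior lobe. None of the 10 genes differed by 2-fold in both libraries, beside 1.08% of 12339 genes higher and 0.365% lower in the *Ednrb*-rich cells. *Spry1* was 1.12-fold (1.01 to 1.26) and 1.26-fold (1.11 to 1.44) higher in *Ednrb*-rich cells, and *Fgfr1* 1.17-fold (1.02 to 1.33) and 1.24-fold (1.07 to 1.43). *Fgfr2* was at 42.1 and 35.7 CPM in *Ednrb*-rich and 51.6 and 44.7 in *Aldh1a2*-rich cells. Among the sparser genes *Etv4* was at 0.602 (0.351 to 1.02) and 0.565 (0.229 to 1.40) and *Spry4* at 0.735 (0.452 to 1.19) and 0.580 (0.301 to 1.12) of the *Aldh1a2*-rich level, and *Fgfr3* at 1.42 (0.548 to 3.72) and 3.53 (0.893 to 19.1), all with limits on both sides of 1.

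Stem-like cells with at least 3 of 6 proliferation markers were compared with those that had none. *Etv4* was the 1 gene of the 10 past 2-fold, at 8.38 against 4.06 CPM in the male and 6.02 against 1.48 in the female library, ratios of 2.06 (1.22 to 3.58) and 4.07 (1.72 to 10.2). Of 12380 genes, 4.8% were higher in this way and 0.889% lower. *Spry1* leaned the other way, at 0.838 (0.748 to 0.938) and 0.727 (0.637 to 0.828) of the level in cells without proliferation markers, and *Dusp6* was level at 1.01 (0.858 to 1.19) and 0.993 (0.811 to 1.21).

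Between the libraries, none of the 10 genes differed by 2-fold in stem-like cells, beside 1.49% of 14293 genes higher and 1.29% lower in the male library. The nearest was *Etv4*, 1.93-fold (1.31 to 2.89) higher in the male library. *Spry4* was 1.47-fold (1.04 to 2.09) and *Fgfr2* 1.20-fold (1.07 to 1.36) higher there, and *Fgfr1* was 1.28 times as high in the female library. *Dusp6* differed least, at 1.02 (0.922 to 1.14).

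The files hold 42 other genes of the pathway on the list used. From stem-like to differentiating-like cells, 24 had enough UMIs, 6 were lower and 2 higher by 2-fold in both libraries, beside the 15.2% and 5.26% of all genes tested. Among 7 further feedback and response genes tested, *Spred1*, *Spred2* and *Dusp5* were lower. *Dusp5*, a nuclear ERK phosphatase, went from 111 and 141 CPM to 25.9 and 32.9, and *Dusp4*, another ERK phosphatase, was higher in differentiating-like cells at 16.9 and 11.9 against 3.82 and 3.16 CPM. Of 9 signal transducers (adaptors such as *Frs2* and *Grb2*, and kinases), all 9 passed the filter for differentiating-like, 7 for gonadotroph-like and 8 for each of the other 3 classes. None of those tested was called in any of these 5 comparisons with stem-like cells. *Fgfrl1*, a receptor without a kinase domain, was at 24.1 and 24.6 CPM in stem-like and 35.4 and 35.9 in differentiating-like cells, and at 6.45 and 1.93 in gonadotroph-like cells.

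The immediate early genes were measured in the same classes. Their summed level was 12626 and 12959.5 CPM in stem-like and 7563 and 9037 in differentiating-like cells, and 2 of 9 were called lower, beside 15.2% of all genes tested. In gonadotroph-like cells 7 of 9 were lower, beside 14.4%. Their part in the fall of *Spry1*, *Dusp6* and the other members was not tested.

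Melanotroph-like cells stood out for *Etv1*, an ETS factor of the same family. It was at 302 and 391 CPM there, against 118 and 88.2 in stem-like cells, 2.56-fold and 4.43-fold higher. The ligand *Fgf9* was highest in the same cells, at 31.9 and 46.9 CPM against 7.92 and 6.28, and was also higher in differentiating-like cells at 20.5 and 19.8. *Fgf14*, an intracellular homologue that does not act through FGF receptors, was at 30.3 and 20.8 CPM in melanotroph-like and 37.4 and 28.2 in POU1F1-lineage-like cells. Its relative *Fgf13* and the secreted *Fgf16* were highest in stem-like cells, at 41.4 and 33.2 and at 28.9 and 24.6 CPM. *Fgf7*, which like FGF10 acts on the epithelial form of FGFR2, gave 11 and 10 UMIs in mesenchymal-like cells, 1.94 and 3.68 CPM, and at most 2 in any other class. *Fgf3*, *Fgf4* and *Fgf15* gave no UMI in any class, and *Fgfr4*, the remaining receptor, stayed at or below 1.56 CPM.

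Likeness to other genes was measured by Pearson's r of log2(CPM + 1) over 12 points, 6 classes in each of 2 libraries, among 7926 genes with at least 20 CPM in a class of both libraries. The points share libraries and classes, so r is a description. The nearest genes were *Pla2g4a*, *Plekha2* and *Frmd6* for *Fgf10* (0.985 to 0.974), *Plekhg2*, *Map2k3* and *Yap1* for *Fgfr1* (0.984 to 0.974), *H2-K1*, *Cd9* and *Rfk* for *Fgfr2* (0.954 to 0.946), and *Lgals3bp*, *Smad7* and *S100a16* for *Spry1* (0.962 to 0.950). Those nearest to *Etv5* were less close, *Frmd4a*, *Gpsm2* and *Tipin* at 0.898 to 0.878, as were *Fam117a*, *Ext1* and *Amer1* for *Fgfr3* at 0.920 to 0.880. Within the set the closest pair was *Spry2* and *Dusp6*, at 0.876.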

How the data were processed

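Droplet libraries (10x 3 prime) of sorted SOX9iresGFP-positive cells from 3 male and 3 female P3 pituitaries were analysed. The authors deposited counts of UMIs per gene and barcode, whole numbers without normalization for 31055 features, made with Cell Ranger 3.0.2 per the file headers on mm10. The steps here began from these counts. Cells needed 50 genes and a mitochondrial share within 3 SD of the mean, which removed 159 male and 85 female barcodes and left 10410 and 5711 cells (median 8902.5 and 9789 UMIs, totals 105883748 and 62830305). No doublets were removed in the main setting. The members, gene lists and marker numbers were chosen with earlier results of these data known, the marker numbers on marker UMIs alone.

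Counts were summed per class and library and divided by total UMIs (CPM), with exact Poisson intervals. Shares have Clopper-Pearson 95% intervals, also after thinning to 5000 UMIs (seed 1). A ratio was given limits by dividing opposite bounds of its terms, which is wider than 95% needs. All cover counting error only, and 0 counts were set to 3 for ratios. A gene was called at 2-fold in the same direction in both libraries, where 10 UMIs were expected in the smaller class. The expected number used the rate of both classes together, so genes high in the larger class passed more easily. The named genes are the members, a fixed list of other FGF pathway genes, 9 immediate early genes, and the 3 genes most like each of 6 members. *Fgf7*, *Fgf8*, *Fgf18*, *Fgfr4* and *Dusp4*, under the 20 CPM that rule asks for in both libraries, were named after their values were seen. Ratios, limits and thinning were tested on simulated data. Alternatives are 1000 genes per cell, 1 more marker per class, no limit on other classes, Scrublet (scanpy 1.11.5, 0.8% per 1000 cells), totals without mitochondrial and hormone genes, TMM in edgeR 4.0.16, means of per-cell CPM, folds of 1.5 and 3, and thinning to 3000 UMIs. Gene positions are GENCODE vM21 (mm10), and promoters RefSeq GRCm38.p6.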

Additional observations from a re-analysis of the deposited data

How the results depend on the processing

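No paired analysis was possible because each sex has 1 library and no result comes from a test. Of 63 recomputed counts of called genes and of genes with the same highest class in both libraries, 58 stayed within 1.5 times the main value. With 1 more marker per class, 5 rather than 8 genes were lower in differentiating-like cells, and 3 (*Fgf10*, *Fgfr3*, *Etv4*) no longer had enough UMIs. At 3-fold, 3 rather than 5 genes were lower in gonadotroph-like cells. The count between male and female stem-like cells went from 0 to 1, *Etv4*, without Scrublet-marked cells, with means of per-cell CPM, and at 1.5-fold. Of 350 recomputed ratios of called genes none changed direction, and 348 stayed past 2-fold. The other 2 are *Dusp6* in female melanotroph-like cells, at 0.512 of the stem-like level with totals without mitochondrial and hormone genes and 0.504 with means of per-cell CPM. Of 840 recomputed levels, 79 left the 95% interval of the main level, among them 22 with no limit on other classes, 21 with means of per-cell CPM and 19 with 1 more marker. Without Scrublet-marked cells *Spry2* was also past 2-fold in differentiating-like cells. TMM moved log2 ratios against stem-like cells by at most 0.31 in male melanotroph-like and by -0.21 in female gonadotroph-like cells, and changed no count by more than 1.5 times. The pituicyte-like values rest on 9 cells. With no limit on other classes they are 13 cells, and *Fgf10* is at 258 CPM (198 to 332) in them. The planned count over both libraries could not be made for them, since the female library has none. Levels under about 1 CPM rest on few UMIs, and female gonadotroph-like values on 34 cells.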
